A study of Mus musculus with 2 samples.

Results

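Neutrophil chemoattractants and their receptors were followed through the CD45+ cells of the injured mouse thalamus: the 3 CXC chemokine ligands Cxcl1, Cxcl2 and Cxcl3, and the 5 receptors Cxcr2, Cxcr4, Fpr1, Fpr2 and Csf3r. These 8 genes, of 33696 in the deposited tables, were chosen by name with earlier results of these data known, and each had 1 row. The scRNA-seq consisted of 2 libraries of live CD45+ cells sorted from the thalamus of C57B6/J mice 21 days after cortical ablation injury (CAI), so that both groups carried the injury. One library came from mice given control Ab (normal rat IgG) and the other from mice given anti-CD9 Ab (clone KMC8, a blocking antibody to the tetraspanin CD9), injected into the thalamus from day 7 to day 19 at 1.0 µg/µl. The methods describe pools of 4 mice per thalamus library, without saying so for the antibody groups, and the mice of the study are given as 12 weeks old. The libraries were made to look at microglial states of the thalamus under CD9 blockade. Here the comparison was whether the 8 genes were at different levels with each antibody, and in which cells.

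The quality limits of the study left 7467 control Ab and 9162 anti-CD9 Ab cells, holding 24940542 and 22664880 UMIs (unique molecular identifiers, each standing for 1 captured mRNA molecule). Median depth per kept cell was 1880 and 1419 UMIs. The libraries shared 54 barcodes (0.441% and 0.356% of their barcodes). Values are counts per 1000000 UMIs (CPM) of the summed cells of a library. Each mRNA is counted at its 3′ end, so that CPM needs no correction for gene length. With 1 library per antibody there was no test, and all 95% intervals cover counting error only. Antibody, pool of mice and library cannot be told apart. Fewer cells of a type and less mRNA per cell cannot be told apart in values over all kept cells.

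Cxcl1, Cxcl2 and Cxcl3 are small secreted proteins that draw neutrophils out of the blood by binding Cxcr2, the main chemokine receptor of the mature neutrophil. Cxcr4 binds Cxcl12 and holds immature neutrophils in the bone marrow, and is also carried by lymphocytes and macrophages. The formyl peptide receptors Fpr1 and Fpr2 sense bacterial and mitochondrial peptides and other danger signals, and guide the last steps of migration. Csf3r is the receptor for G-CSF (Csf3), the growth factor of the neutrophil lineage. In brain injury, these genes are best known from the early entry of neutrophils, although activated macrophages and glia can also make the ligands.

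The promoters of the 3 ligands are shown because the genes are near neighbours on chromosome 5 and are known targets of NF-κB, the transcription factor of the inflammatory response. In the mouse build GRCm38.p6 (RefSeq), the start of Cxcl1 lies 105144 bases beyond that of Cxcl3, and the start of Cxcl2 a further 12654 bases on. The 250 bases before each start, on the plus strand, read as follows from 5′ to 3′, with matches to the NF-κB consensus in capitals. They span chr5:90890995-90891244 for Cxcl1, chr5:90903649-90903898 for Cxcl2 and chr5:90785851-90786100 for Cxcl3.
Cxcl1: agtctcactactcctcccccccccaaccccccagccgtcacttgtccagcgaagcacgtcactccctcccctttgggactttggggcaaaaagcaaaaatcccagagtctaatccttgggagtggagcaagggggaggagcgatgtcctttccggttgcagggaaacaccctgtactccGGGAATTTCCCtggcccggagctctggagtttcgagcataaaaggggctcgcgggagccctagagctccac
Cxcl2: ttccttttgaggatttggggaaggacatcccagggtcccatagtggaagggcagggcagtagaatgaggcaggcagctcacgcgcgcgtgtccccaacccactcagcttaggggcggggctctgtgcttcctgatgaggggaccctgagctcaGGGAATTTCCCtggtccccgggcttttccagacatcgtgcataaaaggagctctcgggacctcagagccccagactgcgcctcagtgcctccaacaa
Cxcl3: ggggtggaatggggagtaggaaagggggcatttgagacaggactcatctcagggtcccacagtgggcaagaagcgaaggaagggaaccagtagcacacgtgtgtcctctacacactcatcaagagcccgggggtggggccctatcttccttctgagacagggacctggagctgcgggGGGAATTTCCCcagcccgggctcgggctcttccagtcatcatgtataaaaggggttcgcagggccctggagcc

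Each of the 3 windows held the same 11 letters, GGGAATTTCCC, which match the NF-κB consensus on both strands. They began 71, 97 and 73 bases before the start of Cxcl1, Cxcl2 and Cxcl3. The consensus was searched on both strands of all 32851 RefSeq promoter windows of this length and was found in 2382 of them (7.25%). The exact 11 letters, chosen after the 3 windows had been read, were found in 14 (0.0426%). Of the 5 receptors, Csf3r alone had a match to the consensus in its window. An AP-1 site (TGANTCA) or a C/EBP site (TTGCNNAA) was in none of the 8 windows, and in 6.75% and 9.56% of all windows. These matches describe the letters only, since no binding was measured here.

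Over all kept cells, each ligand was low with control Ab and far higher after anti-CD9 Ab. Cxcl2 had 162 UMIs (6.50 CPM) with control Ab and 77890 (3437 CPM) after anti-CD9 Ab, for a log2 ratio of 9.05 (8.82 to 9.27). It was detected in 0.710% and 45.4% of cells. Cxcl3 had 9 and 4054 UMIs (0.361 and 179 CPM, log2 ratio 8.95), and Cxcl1 had 4 and 741 (0.160 and 32.7 CPM, log2 ratio 7.67, 6.25 to 9.09). Summed, the 3 ligands gave a log2 ratio of 9.02 (8.81 to 9.24). The 17 genes of the list of stress genes induced by tissue dissociation, which can share regulation with chemokines, summed to 2281 and 3369 CPM, a log2 ratio of 0.56. Its part in the ligand values was not tested.

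The receptors differed less and unequally. Fpr1 was at 1.96 CPM with control Ab and 133 CPM after anti-CD9 Ab (49 and 3006 UMIs, log2 ratio 6.08), and Fpr2 at 2.77 and 130 CPM (129.7; 69 and 2939 UMIs, 5.55). Cxcr2 was at 3.17 and 90.4 CPM (79 and 2049 UMIs, 4.83), and Cxcr4 at 17.8 and 101 CPM (444 and 2296 UMIs, 2.51). Csf3r was at 224 and 321 CPM (5579 and 7273 UMIs, 0.52, 0.47 to 0.57). Hence 7 of the 8 genes, all but Csf3r, were at least 2-fold higher with anti-CD9 Ab, where 7.41% of all 15136 genes that reached 50 UMIs were. The median log2 ratio of all those genes was −0.37, against which the ratios above are to be read. Since the 8 genes were chosen with earlier results of these data known, their count beside the share of all genes is a description.

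These genes were then placed in cell types. Clusters were made without the 8 genes, and were named from marker lists. Of the 25 clusters, clusters 0, 7 and 18 carried 12, 12 and 7 of 12 neutrophil markers and were called neutrophil-like. With control Ab they made up 64 cells (0.857% of those kept, 0.661 to 1.09%), and 2726 after anti-CD9 Ab (29.8%, 28.8 to 30.7%). Cluster 8 carried 4 of the 12 markers, was led by Gdf15, Hilpda and Gadd45b, and stayed unnamed (1 and 790 cells). There were 210 and 1264 macrophage-like cells, 1889 and 805 microglia-like cells, and 2798 and 1005 that were T cell-like. Cluster 5, most of the plasma cell-like cells, carried only 4 of 8 markers at a median of 779 UMIs, and its values are not described as those of a cell type. It remained in the sums over kept cells, where it held 1874 of the 9292 ligand UMIs that lay outside neutrophil-like cells and cluster 8 with anti-CD9 Ab, and in the plasma cell-like values plotted and used for likeness between genes.

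**Figure D1:**
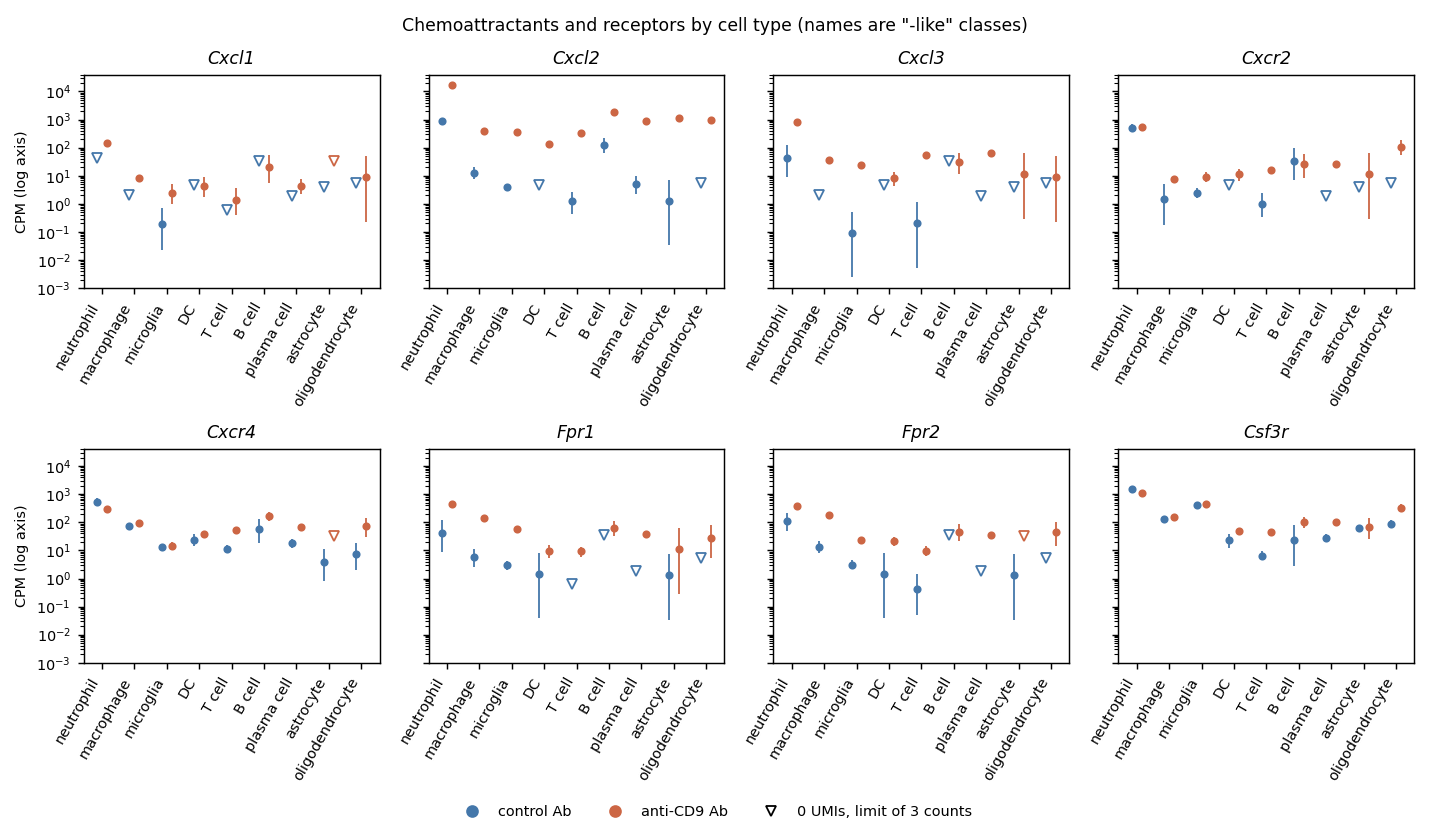
CPM of each gene (log axis) by cell type with control Ab (blue) and anti-CD9 Ab (orange); bars are exact 95% Poisson intervals and open triangles mark 0 UMIs at the limit of 3 counts. With anti-CD9 Ab, neutrophil-like cells had the highest level of each of the 8 genes among the named types, and Csf3r in microglia-like cells was close in both libraries (407 and 465 CPM).

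With anti-CD9 Ab, most of the ligand mRNA lay in neutrophil-like cells. They held 76.2% of the Cxcl2 UMIs, 70.5% of the Cxcl3 UMIs and 65.2% of the Cxcl1 UMIs, and cluster 8 held a further 12.9%, 12.4% and 20.1%. Cxcr2 was the most concentrated, with 86.7% of its UMIs in neutrophil-like cells and 1.42% in cluster 8. Fpr1 and Fpr2 were spread over neutrophil-like cells (48.9% and 42.9%) and macrophage-like cells (32.97% and 42.3%). The sum of Cxcr2, Fpr1, Fpr2 and Csf3r lay 53.6% (52.8 to 54.4%) in neutrophil-like cells. With control Ab, by contrast, 77.0% of the Csf3r UMIs and 65.3% of the 49 Fpr1 UMIs lay in microglia-like cells.

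**Figure D2:**
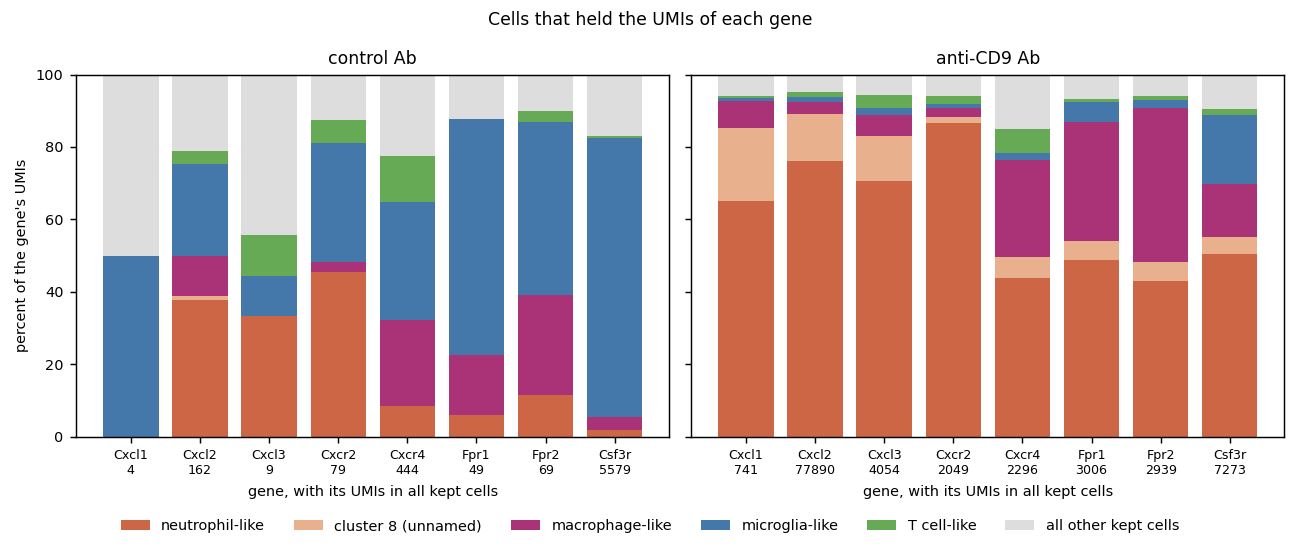
Percent of the UMIs of each gene held by neutrophil-like cells, the unnamed cluster 8, macrophage-like, microglia-like, T cell-like and all other kept cells, for control Ab (left) and anti-CD9 Ab (right); the count under each gene is its UMIs in all kept cells. Neutrophil-like cells held 1.97% of the Csf3r UMIs with control Ab and 50.6% after anti-CD9 Ab.

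Leaving out neutrophil-like cells and cluster 8 lowered the differences and left the ligands far apart. The 3 ligands were then at 4.38 and 504 CPM (log2 ratio 6.85, 6.57 to 7.12). Fpr1 was at 1.85 and 75.0 CPM (5.34), Fpr2 at 2.45 and 82.3 CPM (5.07), Cxcr4 at 16.3 and 62.9 CPM (1.94) and Cxcr2 at 1.73 and 13.2 CPM (2.93). Csf3r turned in direction, at 219.9 CPM with control Ab and 177 CPM after anti-CD9 Ab (−0.32, −0.38 to −0.25). It was not lower within the microglia-like clusters 3 (483 and 527 CPM) and 4 (361 and 402 CPM) or within macrophage-like cells (135 and 159 CPM). Microglia-like cells were 1889 of the 7402 control Ab cells that remained and 805 of the 5646 anti-CD9 Ab cells. The part of cell numbers in this turn was not tested. Of the anti-CD9 Ab cells that remained, 15.3% were predicted doublets. Among them T cell-like cells, used below as the background of free RNA, held 1073 ligand UMIs among 2829637 UMIs. The part of doublets and free RNA in these values was not tested, so they are not read as expression by the remaining cells.

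Within neutrophil-like cells, the ligands and the formyl peptide receptors were higher with anti-CD9 Ab, whereas Cxcr2, Cxcr4 and Csf3r were not. Cxcl2 was at 857 CPM (655 to 1100) with control Ab and 17419.7 CPM after anti-CD9 Ab, for a log2 ratio of 4.35 (3.98 to 4.71). Cxcl3 was at 42.1 and 840 CPM, from 3 UMIs with control Ab, and Cxcl1 had 0 and 483 UMIs, at least 3.37-fold higher against the limit of 3 counts. Fpr1 was at 42.1 and 431 CPM (3 and 1469 UMIs, 3.36, 1.72 to 4.99), and Fpr2 at 112 and 370 CPM (370.5; 8 and 1262 UMIs, 1.72, 0.72 to 2.72). Cxcr2 was at 506 and 522 CPM (0.05, −0.43 to 0.52). Cxcr4 was at 534 and 295 CPM (−0.86) and Csf3r at 1545 and 1079.8 CPM (−0.52, −0.79 to −0.24). The 17 dissociation genes summed to 3947 and 10099.8 CPM in these cells, and their part was not tested.

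The few neutrophil-like cells with control Ab differed in other genes as well. In cluster 7, which held 43 of the 64, the granule genes Camp, Ngp and Ltf, which neutrophils make before they leave the marrow, were at 25360.1, 19500.2 and 4919 CPM with control Ab and at 316, 193 and 61.2 CPM after anti-CD9 Ab. Inside that cluster Cxcl2 was at 862 and 8809 CPM (3.35), Cxcr2 at 608 and 1263 CPM (1.06, 0.54 to 1.57), Cxcr4 at 470.4 and 349 CPM (−0.43, −1.03 to 0.17) and Csf3r at 1744 and 2041 CPM (0.23, −0.08 to 0.53). Thus the lower Csf3r of neutrophil-like cells as a whole was not seen within cluster 7. Nor was their near-equal Cxcr2, which was higher with anti-CD9 Ab within that cluster. The dissociation genes summed to 3763 and 14586.9 CPM in cluster 7. In cluster 0, the 19 control Ab cells had 14 Csf3r UMIs, and the log2 ratio was −0.38 (−1.14 to 0.38). Cxcr4 was at 689.8 and 242 CPM there (−1.51, −2.34 to −0.69), from 12 UMIs with control Ab. Cxcr2 in cluster 0 was at 115 and 220 CPM (0.94, −1.07 to 2.94), from 2 UMIs with control Ab. Fpr2 there was at 57.5 and 431 CPM (2.91, 0.08 to 5.73), from 1 UMI with control Ab, and Fpr1 had 0 and 1175 UMIs.

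The neutrophil-like clusters of the anti-CD9 Ab library differed in which of the 8 genes they carried most. Cluster 0 (1704 cells), led by Ccl4, Rsad2, Ccl3 and Cxcl10, chemokines and an interferon-induced gene, had the highest Cxcl2 (22612 CPM) and Cxcl1 (209.9 CPM), with Cxcr2 at only 220.0 CPM. Cluster 7 (765 cells), led by Retnlg, S100a9, Lrg1 and S100a8, had Cxcr2 at 1263 CPM, Csf3r at 2041 CPM and Cxcl2 at 8809 CPM. Cluster 18 (257 cells), led by Mmp9, had Cxcr4 at 585 CPM, the highest of the 3, with Cxcl2 at 716 CPM. Cxcl1 was nearly confined to cluster 0 among them: clusters 7 and 18 had 4 and 2 UMIs, against 477. Cxcl3 did not follow Cxcl1, at 913 CPM (874 to 953) in cluster 0 and 872 CPM (812 to 936) in cluster 7, with overlapping intervals. Fpr1 was at 517, 297 and 127 CPM and Fpr2 at 431, 273 and 167 CPM in clusters 0, 7 and 18.

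The unnamed cluster 8 had Cxcl2 at 12269 CPM, between clusters 7 and 0, and Cxcl1 at 182 CPM (154 to 213), an interval that overlapped that of cluster 0 (191 to 229.6). It had Cxcr2 at 35.4 CPM (23.7 to 50.8) and Csf3r at 413 CPM. It therefore carried the ligands without the level of Cxcr2 seen in the 3 named clusters. Cxcr2, Cxcr4 and Cxcl2 were among the 10 leading genes of some of these clusters, so that their order among clusters is a description.

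**Figure D3:**
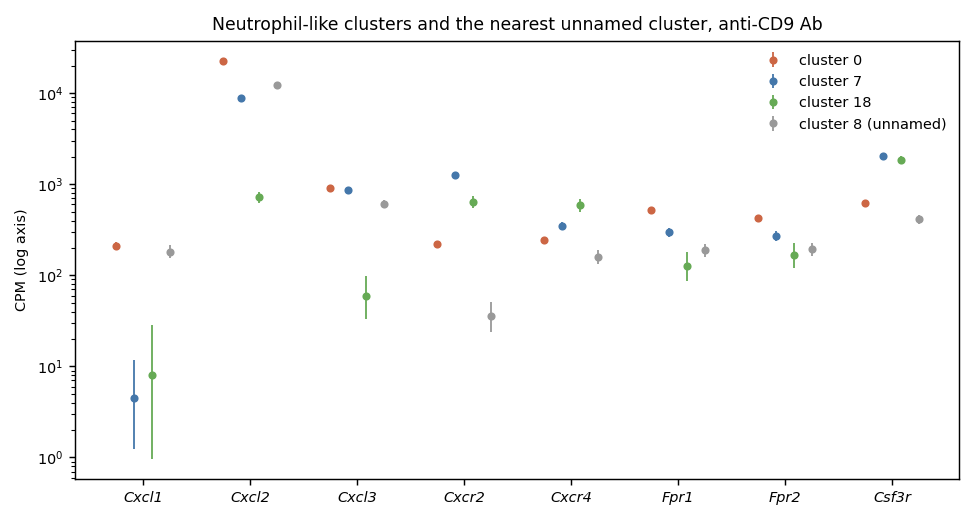
CPM (log axis) of the 8 genes with anti-CD9 Ab in neutrophil-like clusters 0, 7 and 18 and in the unnamed cluster 8, with exact 95% Poisson intervals. Cluster 0 was highest for Cxcl1 and Cxcl2, cluster 7 for Cxcr2 and Csf3r, and cluster 18 for Cxcr4.

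Cells were thinned to 1000 UMIs each to compare shares of cells with a UMI. Predicted doublets were kept in all thinned shares. Of the 2726 neutrophil-like cells with anti-CD9 Ab, 1853 were deep enough, and 873 were left out. Cxcl2 was detected in 81.2% of them (79.4 to 83.0%, or 76.4% of all cells unthinned), Csf3r in 46.7%, Cxcr2 in 28.2%, Fpr2 in 28.1%, Fpr1 in 28.0%, Cxcr4 in 19.6%, Cxcl3 in 18.3% and Cxcl1 in 3.72%. At this depth the intervals of Cxcr2, Fpr2 and Fpr1 overlapped, as did those of Cxcr4 and Cxcl3. That order depended on depth: thinned to 500 UMIs, Cxcr2 was detected in 20.9% of cells (19.4 to 22.5%), Fpr1 in 16.6% and Fpr2 in 15.8%, with intervals below it. Without thinning, these shares were 35.2%, 30.3% and 31.5%, and Cxcr4 was at 24.5% beside 17.4% for Cxcl3. The highest single neutrophil-like cell held 488 Cxcl2 UMIs, whereas no neutrophil-like cell held more than 9 UMIs of Fpr1 or 8 of Cxcr2. Up to 12 Fpr1 UMIs were held by 1 macrophage-like cell with anti-CD9 Ab. With control Ab only 21 neutrophil-like cells reached this depth, of which 3 had Cxcl2 and 8 had Cxcr2.

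Detection in the same thinned cells showed which genes went together. Cxcl3 was found in 22.4% of the cells with Cxcl2 and in 0.575% of those without it (2 of 348 cells). Fpr2 was found in 39.3% of the cells with Fpr1 and in 23.7% of the others. Csf3r was found in 73.0% of the cells with Cxcr2 and in 36.4% of the others, a gap that was smaller inside cluster 7 (81.0% and 75.6%, with overlapping intervals). Inside cluster 0 the shares were 60.4% (53.0 to 67.5%) and 29.8% (27.1 to 32.6%). With or without Cxcr2, Csf3r was found in 441 of 1289 thinned cells of cluster 0, 366 of 462 of cluster 7 and 78 of 102 of cluster 18. Frequent Csf3r was thus not particular to cluster 7. Cxcl2 was found in 72.4% of the cells with Cxcr2 and in 84.7% of the others. That gap was smaller inside each cluster. Cluster 0 had 83.4% (77.3 to 88.4%) and 90.4% (88.5 to 92.1%). Cluster 7 had 69.0% (63.4 to 74.1%) and 79.5% (72.3 to 85.5%), with overlapping intervals, and cluster 18 had 23.8% and 26.7%. Cxcr4 was as frequent with Cxcr2 as without it within the intervals (20.9%, 17.5 to 24.6%, and 19.1%). These are shares of cells from 1 library, where cells are not replicates.

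T cell-like cells, which should lack the ligands, Cxcr2, Fpr1, Fpr2 and Csf3r, served as the background of free RNA. With control Ab, T cell-like cells had 6 Cxcl2 UMIs (1.23 CPM), 5 of Cxcr2 and 32 of Csf3r (6.58 CPM). With anti-CD9 Ab they had 325 CPM of Cxcl2, 52.7 CPM of Cxcl3, 15.5 CPM of Cxcr2, 45.9 CPM of Csf3r, 9.19 CPM of Fpr1 and 9.54 CPM of Fpr2. All 4 members with at least 50 UMIs in these cells were at least 2-fold higher, where 3.72% of the 9784 genes tested were, and none was as far lower, where 2.53% were. Cxcl2, Cxcl3 and Csf3r (6, 1 and 32 UMIs with control Ab) passed that limit through the anti-CD9 Ab library, so this count is a description. Much of the background lay in few cells: 10 cells held 60.8% of the Cxcl2 UMIs, with up to 145 in 1 cell.

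Most of that background lay in barcodes predicted to be doublets. Without them, 911 T cell-like cells of the anti-CD9 Ab library had 61.5 CPM of Cxcl2 (52.1 to 72.1), 0.809 CPM of Cxcr2, 4.45 CPM of Csf3r, 2.83 CPM of Fpr1 and 2.43 CPM of Fpr2. The remaining Cxcl2 was spread thinly over 131 cells, with no more than 5 UMIs in any. Cxcl3 stayed at 31.6 CPM, since 1 cell held 43 of the 78 UMIs. Cxcl2 stood at 1.10 UMIs per UMI of S100a9, a neutrophil alarmin, and at 0.853 in neutrophil-like cells. The summed neutrophil markers, 12 genes, were at 214 CPM with control Ab and 1206 CPM after anti-CD9 Ab in all T cell-like cells, and 1 of the 12, Stfa2l1, was at 0 with control Ab.

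In macrophage-like cells, the formyl peptide receptors stood well above this background and the ligands only partly. Fpr1 was at 5.71 CPM with control Ab and 148 CPM after anti-CD9 Ab (8 and 991 UMIs, log2 ratio 4.70, 3.69 to 5.70), and Fpr2 at 13.6 and 186 CPM (19 and 1243 UMIs, 3.78, 3.12 to 4.43). Without predicted doublets Fpr1 was at 5.73 and 124 CPM and Fpr2 at 13.1 and 168 CPM. With doublets kept, the thinned share of cells with Fpr2 was 1.92% and 15.8%, a difference of 13.8 percentage points (10.3 to 16.3). That of T cell-like cells with anti-CD9 Ab was 0.428%. Csf3r was at 135 and 159 CPM (0.24, 0.01 to 0.46) and at 140.0 and 144 CPM without predicted doublets. In all, 6 of the 8 genes were at least 2-fold higher in macrophage-like cells, where 8.05% of the 9105 genes tested were.

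The ligands in macrophage-like cells summed to 12.9 and 443 CPM (log2 ratio 5.11, 4.44 to 5.78). Cxcl2 made up most of this, at 12.9 and 399 CPM, and at 5.73 and 111 CPM (102 to 121) without the predicted doublets, which were 10.5% and 25.2% of these cells. That was above the 61.5 CPM of T cell-like cells treated in the same way, and stood at 3.02 UMIs per S100a9 UMI. With doublets kept, its thinned share was 12.8% (10.95 to 14.8%) against 10.2% (8.31 to 12.3%) in T cell-like cells, so that the shares overlapped. Before thinning, median depths were 5027 UMIs in macrophage-like and 2328 UMIs in T cell-like cells. Oligodendrocyte-like cells, a further background, held 112 Cxcl2 UMIs among 111997 UMIs with anti-CD9 Ab and doublets kept. That was a higher level than the 399 CPM of macrophage-like cells. With doublets kept, the CPM of Cxcl2 in macrophage-like cells was thus not above both backgrounds. Without predicted doublets, its 111 CPM was set beside T cell-like cells alone, and is not read as above both backgrounds either. Median depths were unlike, at 848 UMIs in oligodendrocyte-like and 5027 UMIs in macrophage-like cells. The part of depth in this comparison was not tested, so no conclusion is drawn from it. Cxcl3 was at 0 and 36.5 CPM and at 37.5 CPM without doublets, of which 10 cells held 90.8%. Cxcl1 had 55 UMIs with anti-CD9 Ab and 1 without doublets, and Cxcr2 had 51 and 2, so that neither was above background. The neutrophil markers summed to 184 and 836 CPM in macrophage-like cells, with Asprv1 at 0 with control Ab, and the dissociation genes to 1626 and 2088 CPM.

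Sub-clusters of the macrophage-like cells differed in these receptors. Sub-cluster 0 (12 cells with control Ab, 440 with anti-CD9 Ab), led by Saa3, Lcn2 and Ccl5, had the most Fpr1 and Fpr2 of the 6 with anti-CD9 Ab (79.8 and 279 CPM, 79.8 and 313 CPM), and Fpr1 was among its 10 leading genes. The log2 ratios inside it were 1.81 (0.54 to 3.08) and 1.97 (0.70 to 3.24), from 5 UMIs each with control Ab. Sub-cluster 1 (135 and 176 cells), led by Spp1 and Gpnmb, had little Fpr1 (0 and 15.4 CPM) and Fpr2 (3.16 and 10.3 CPM). It had the most Cxcr4 with anti-CD9 Ab, at 77.9 and 173 CPM (1.16, 0.76 to 1.55). Of its cells 1.48% and 16.5% were predicted doublets, and their part in the Cxcr4 values was not tested. Sub-cluster 2 (25 and 284 cells) had Cx3cr1 and Tmem119, both microglia markers, among its 10 leading genes, so that its values are not read as those of macrophages, although they are in the sums above. It had Fpr2 at 18.9 and 96.8 CPM, from 3 UMIs with control Ab, and Csf3r at 277 and 150 CPM (150.1; −0.89, −1.35 to −0.42). Sub-cluster 3 (16 and 165 cells), led by Ccr2, a receptor of blood monocytes, had Fpr2 at 119 and 108 CPM (−0.14, −1.26 to 0.97) and Csf3r at 153 and 185 CPM. Sub-clusters 4 and 5 were 44.2% and 97.2% predicted doublets with anti-CD9 Ab, and sub-cluster 4, led by S100a9, held 1601 of the 2667 Cxcl2 UMIs of macrophage-like cells. Cxcl2 in sub-cluster 0 was at 311 CPM, or 5.08 UMIs per S100a9 UMI. Of that sub-cluster 26.6% were predicted doublets with anti-CD9 Ab, and 10 cells held 42.9% of its Cxcl2 UMIs. The part of doublets in this value was not tested.

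**Figure D4:**
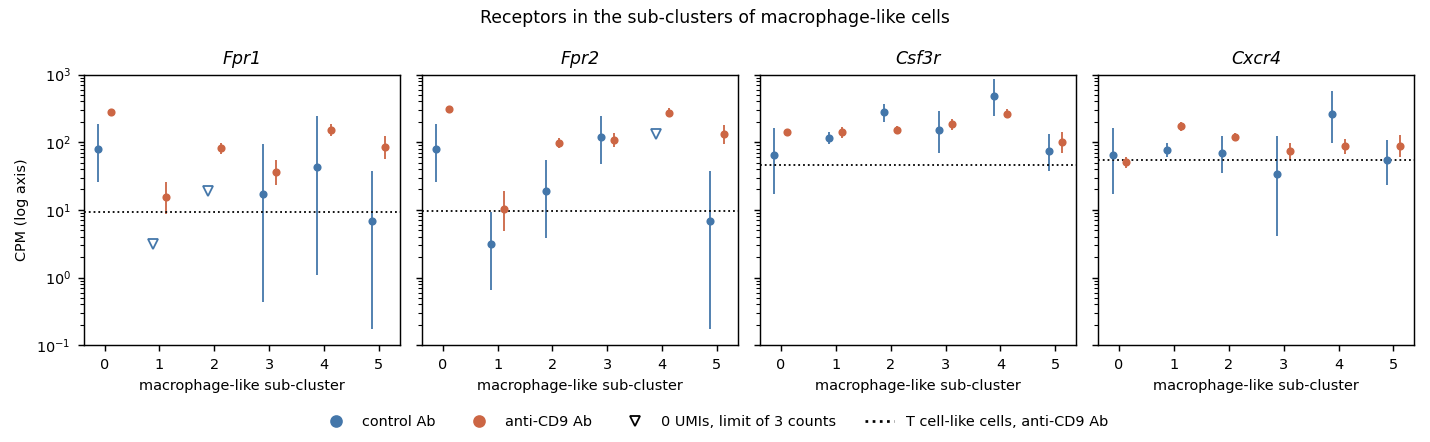
CPM (log axis) of Fpr1, Fpr2, Csf3r and Cxcr4 in the 6 sub-clusters of macrophage-like cells with control Ab (blue) and anti-CD9 Ab (orange), with exact 95% Poisson intervals; triangles mark 0 UMIs at the limit of 3 counts and the dotted line the T cell-like cells after anti-CD9 Ab. With anti-CD9 Ab, Fpr1 and Fpr2 were highest in sub-cluster 0 (279 and 313 CPM) and near the dotted line in sub-cluster 1 (15.4 and 10.3 CPM).

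Microglia-like cells carried Csf3r in both libraries. It was at 407 CPM (395 to 420) with control Ab and 465 CPM (441 to 490) after anti-CD9 Ab, for a log2 ratio of 0.19 (0.10 to 0.28), and at 415 and 467 CPM without predicted doublets. It was found in 70.0% and 74.8% of cells, and after thinning in 33.6% and 37.1%, against 0.488% and 1.82% of T cell-like cells. Both microglia-like clusters, 3 and 4, gave like values (483 and 527 CPM, 361 and 402 CPM). Over all kept cells, the anti-CD9 Ab library had more Csf3r UMIs in neutrophil-like cells (110 and 3678, at 1545 and 1079.8 CPM). It also had more in macrophage-like cells (189 and 1063). It had fewer in microglia-like cells (4295 and 1374), which were 25.3% and 8.79% of kept cells.

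Of the other genes in microglia-like cells, Fpr1 stood above the T cell-like background without predicted doublets and Cxcl2 did not. Fpr1 was at 3.04 and 55.5 CPM (4.19, 3.65 to 4.74), at 2.39 and 39.4 CPM (31.9 to 48.1) without predicted doublets, where T cell-like cells had 2.83 CPM. Its thinned share was 0.108% and 4.44%. With anti-CD9 Ab, Fpr1 was at 22.9 CPM in cluster 3 and 88.4 CPM in cluster 4, which were 2.90% and 23.2% predicted doublets. Fpr2 was at 3.13 and 24.0 CPM, and at 2.50 and 11.9 CPM (7.97 to 17.1) without doublets. Oligodendrocyte-like cells, the further background, had 3 Fpr1 and 5 Fpr2 UMIs among 111997 UMIs with anti-CD9 Ab. These are too few to place either gene of microglia-like cells above that background. B cell-like cells held 12 Fpr1 and 9 Fpr2 UMIs among 194629 UMIs with anti-CD9 Ab and doublets kept. That level was not below the 55.5 and 24.0 CPM of microglia-like cells at the same setting. Fpr1 is thus placed above the T cell-like background only. The ligands summed to 4.17 and 379.6 CPM (6.51, 6.07 to 6.94), but Cxcl2 was at 353 CPM with anti-CD9 Ab beside 325 CPM in the T cell-like clusters, and at 43.5 CPM (35.6 to 52.6) without doublets, below the 61.5 CPM of T cell-like cells. It stood at 1.02 UMIs per S100a9 UMI there, near the 1.10 of T cell-like cells. With anti-CD9 Ab and doublets kept, Cxcl2 was at 69.3 CPM in cluster 3 and 640 CPM in cluster 4. The part of free RNA and doublets was not tested, so Cxcl2 is not read as expression by these cells. Cxcr4 was at 13.8 and 14.5 CPM (0.08, −0.41 to 0.57). In these cells 5 of the 7 members with at least 50 UMIs were at least 2-fold higher, where 3.17% of 11104 genes were. These 5 had 1 to 41 UMIs with control Ab and passed the limit only with the anti-CD9 Ab counts, so their count is a description. The neutrophil markers summed to 134 and 785 CPM, none at 0, and the dissociation genes to 2965 and 2055 CPM.

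Cxcr4 was the 1 member that T cells are known to carry. In T cell-like cells it was at 11.5 CPM with control Ab and 54.8 CPM after anti-CD9 Ab (56 and 155 UMIs, log2 ratio 2.25, 1.81 to 2.69), and at 11.1 and 48.5 CPM without predicted doublets (2.13, 1.65 to 2.62). The thinned share of cells was 0.935% and 4.93%, a difference of 3.99 percentage points (2.69 to 5.60), and the unthinned shares were 1.86% and 12.9%, at median depths of 1552.5 and 2328 UMIs. The level was higher with anti-CD9 Ab in each of the 5 T cell-like clusters, at 7.27 and 62.5 CPM in cluster 1, 15.3 and 36.8 in cluster 6, 14.6 and 72.9 in cluster 10, 8.16 and 65.8 in cluster 13 and 25.1 and 58.8 in cluster 22. In the last, the interval of the log2 ratio held 0 (−0.12 to 2.58). Without doublets there were 0.870 Cxcr4 UMIs per S100a9 UMI, against 0.0144 in neutrophil-like cells. Microglia-like cells had 8.20 CPM, and oligodendrocyte-like cells 37.6 CPM from 3 UMIs (7.76 to 110), whose interval takes in the T cell-like value. Natural killer cell markers, 9 genes, had a sum of 39.5 and 217 CPM in the T cell-like clusters, and their part in the Cxcr4 value was not tested.

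Cxcr4 in macrophage-like cells was at 75.0 and 92.2 CPM (0.30, 0.00 to 0.60), and in dendritic cell-like cells at 24.1 and 37.2 CPM (0.63, −0.17 to 1.42). In the order of its levels with anti-CD9 Ab, neutrophil-like cells came first at 295 CPM and microglia-like cells were last of the types with 20 or more UMIs. Cxcr2 was at 522 CPM in neutrophil-like cells, next at 107 CPM in the 96 oligodendrocyte-like cells, from 12 UMIs, and between 7.62 and 25.7 CPM in macrophage-like, microglia-like, dendritic cell-like, T cell-like and B cell-like cells. Those oligodendrocyte-like cells also held S100a9 at 1266 CPM without predicted doublets, so their Cxcr2 is not read as expression.

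The other genes of the same pathway were counted from a list of 61, also chosen with earlier results of these data known. Over all kept cells, 23 of the 53 with at least 50 UMIs were at least 2-fold higher with anti-CD9 Ab and 2 were lower, where 7.41% and 21.6% of all genes were, and their median log2 ratio was 0.61. Among other ligands, 5 of 6 were higher. They included Saa3, an acute-phase protein that Fpr2 can bind (137 and 6773 CPM), and Csf3 itself, which had 0 and 176 UMIs. Among other receptors, 5 of 10 were higher, led by Fpr3 (0.441 and 54.7 CPM) and Cxcr1, the sister receptor of Cxcr2 (6 and 164 UMIs), and Ackr3, a scavenger of Cxcl12, was lower. Of 9 upstream cytokines and their receptors, 5 were higher and 1 was lower. Of 15 signaling genes 4 were higher, of 9 adhesion genes 3, and of 4 genes of leukotriene B4 synthesis 1.

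In macrophage-like cells, 19 of 43 pathway genes were at least 2-fold higher and 2 lower, where 8.05% and 6.82% of all genes were. Pf4, a platelet and macrophage chemokine, had the highest log2 ratio (5.05, from 2 UMIs with control Ab), followed by Il1b, which induces the Cxcr2 ligands (58.5 and 1328 CPM, 4.50, 4.19 to 4.82). The lowest were Selplg, the ligand of the selectins (223 and 89.1 CPM, −1.33), and Rgs2, a regulator of G-protein signaling (252 and 103 CPM, −1.29). In microglia-like cells, 6 of 40 were higher and 1 lower, where 3.17% and 4.5% of all genes were. Saa3 (163 and 3464 CPM, 4.41) and Socs3, a feedback inhibitor of cytokine signaling (27.6 and 159 CPM, 2.52), were highest, and Ackr3 (9.30 and 3.72 CPM, −1.32) and Il1r1 (−0.75, −1.60 to 0.10) lowest. In T cell-like cells, the background of free RNA, 11 of 38 were higher and 0 lower, where 3.72% and 2.53% of all genes were. They held Saa3 (11.9 and 324 CPM) and Il1b (0.823 and 164 CPM, 4 and 465 UMIs), and the part of free RNA in the counts of the other cell types was not tested.

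The genes whose levels went most nearly with each member were sought over 18 groups, each a cell type in 1 library with at least 50 cells, among 11210 genes, using log2(CPM + 10). These groups share 2 libraries, and the values of r are given as a description. Cxcr2 went with Stfa2l1 (r = 0.986), a stefin A family gene and neutrophil marker, H2-Q10 and Asprv1. Fpr1 and Fpr2 went with each other (r = 0.943), and Fpr2 most with Mefv (0.952), the gene of pyrin. Cxcl2 went with Clec4d (0.928), G0s2 and Il1rn, and Cxcl3 with Fpr3 (0.928), Ptgs2 and Fpr1. Csf3r went with Tlr4 (0.936), the receptor of bacterial lipopolysaccharide, Cd33 and C5ar1. Cxcr4 went with Gm31814 (0.911), Cd300ld and Trem3, and Cxcl1 with Gm41409 (0.915), Mrgpra2a and Gm26885. Cxcl1, Cxcl2 and Cxcl3, like Fpr1 and Fpr2, are close copies of one another, and reads that fit 2 of them could have been lost or split in counting.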

How the data were processed

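Counts. The authors deposited raw UMI counts per gene and barcode for each library (10x Genomics Single Cell 3′, v.3.1), made with Cell Ranger. The submitters' processing notes name version 8.0.0 and the build GRCm39, whereas the paper names another version and GRCm38, and which of them made these files was not settled. Promoters came from RefSeq on GRCm38.p6 and all 8 genes were matched by symbol. No coordinates were taken from the count files.

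The members and gene lists were chosen with earlier results of these data known. Cells with 200 to 7500 genes and no more than 2% mitochondrial counts were kept. The libraries were integrated by anchors in Seurat 5.3.0 (R 4.3.3), from 2000 variable genes without the members, the pathway list or the dissociation list, and clustered on 30 principal components (PCs) at resolution 0.8. A cluster was named where at least 50% (3 or more) of the markers of a type were up. Doublets were marked at 0.8% per 1000 barcodes by nearest neighbours to simulated ones (731 and 1112 kept cells) and were not removed, except where stated. The members and the gene lists were not left out of the variable genes used for these doublet scores. Macrophage-like cells were clustered again on 20 PCs at resolution 0.5.

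CPM were computed from counts summed per library and cell type, with exact Poisson intervals, and shares with exact binomial intervals. Differences of shares had Newcombe intervals. A log2 ratio is anti-CD9 Ab over control Ab, with no pseudocount, and where one library had 0 UMIs a limit of 3 counts was used. Genes that reached 50 UMIs in the 2 libraries together were counted as higher or lower past a 2-fold difference. Named genes were the 8 members, the 2 highest and 2 lowest pathway genes in macrophage-like and in microglia-like cells, the 3 genes most like each member, and the leading genes of clusters, and others were named after their values had been seen. The log2 ratio intervals were tried on counts simulated with the Poisson error that they assume. That could not show whether they cover spread between cells or mice. Alternatives were other filters, cluster settings, scalings and thinning depths.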

Additional observations from a re-analysis of the deposited data

Results flagged for a closer look

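Barcodes that the limits on genes and mitochondrial counts removed, 4778 with control Ab and 6011 after anti-CD9 Ab, also held these genes. The 3 ligands were at 531 CPM with anti-CD9 Ab and 3.51 CPM with control Ab. The sum of Cxcr2, Fpr1, Fpr2 and Csf3r was at 233 CPM with anti-CD9 Ab, above the control Ab level. Both values stand out because they lie in barcodes that no comparison above used. Among the single genes there, Csf3r was lower with anti-CD9 Ab (122 CPM, and 157 CPM with control Ab).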

How the results depend on the processing

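All intervals cover counting error in 2 libraries, and no alternative can stand for mice that were not sampled. No paired analysis was possible because each antibody had 1 library. The log2 ratio of the ligands over all kept cells (9.02) was 8.62 with up to 5% mitochondrial counts, 8.60 with no filter on cells, 9.40 with median-of-ratios scaling, which moves all genes by 0.37 (the median of all genes was −0.37), and 6.85 without neutrophil-like cells and cluster 8. That of the receptors (1.64) was 1.35, 1.32, 2.01 and 0.76 under the same settings. In macrophage-like cells the ligand ratio (5.11) was 7.42 without integration. In microglia-like cells (6.51) it was 7.11 with up to 5% mitochondrial counts, 3.61 without predicted doublets, 3.93 without integration and 4.69 at 20 PCs. The cause of these shifts was not tested. The neutrophil-like share was 28.9 percentage points higher with anti-CD9 Ab, 19.2 with up to 5% mitochondrial counts, 30.05 without predicted doublets and 37.5 without integration, with names from 33% of the markers, or with cluster 8 counted. The neutrophil-like part of the receptor UMIs (53.6%) was 43.4%, 61.1%, 58.0%, 58.1% and 58.1% under those settings. With genes of at least 10 UMIs, 4 pathway genes rather than 2 were lower over all kept cells. The Cxcr4 ratio in T cell-like cells stayed between 2.04 and 2.34. No alternative turned the direction of these results, and of the single genes over all kept cells Csf3r turned without neutrophil-like cells and cluster 8 (−0.32). The settings without neutrophil-like cells and with cluster 8 counted were chosen after seeing the data.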
